A study of Mus musculus with 12 samples.

Results

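Very short transcript features of the newborn mouse eye were followed in mRNA and in ribosome footprints, in eyes with and without RNG140. They were selected on 2 kinds of deposited value, a listed length from 16 to 90 and read counts of at least 30 summed over the 6 mRNA libraries and 30 over the 6 footprint libraries. A feature is 1 distinct set of 12 counts, so that transcripts with identical counts in every library enter once. The rule found 224 features, standing for 274 transcript identifiers, of 32803 features in all. Of the 854 features of this length with any count, the other members of the class fell below a count minimum.

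The tissue was whole eye at postnatal day 0.5, from mice labelled WT or RNG140KO (KO here), with 3 footprint and 3 mRNA libraries of each genotype. The sources used here give neither allele nor strain, nor does any label tie a library to its own animal, so the p-values speak for the scatter of these libraries, possibly technical. Library totals over distinct features ran from 602243 to 1124207 counts in mRNA and from 296549 to 5324271 in footprints. Neither the files nor the reference tables pair the identifiers with gene names, so the members' genes, the targeted gene and the markers of the eye's cell types were not analysed here. A change in a whole-eye library does not tell fewer cells of a type from less RNA per cell.

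RNG140, the product of Caprin2, is an RNA-binding protein of cytoplasmic RNA granules. Ribosome profiling digests unprotected RNA and sequences the stretch inside each ribosome, about 30 nucleotides. Short coding regions are read by few ribosomes at a time, and much of their length lies near the start or stop codon. Many abundant small proteins of animal cells, among them several ribosomal proteins and respiratory chain subunits, come from short coding regions; which of them are among these features is not known here.

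The listed length has no stated unit, and this bears on what the members can hold. Only 2 members had a listed length of 30 or less. The member of listed length 16 had 1553 footprint and 337 mRNA counts, and the one of listed length 28 had 713 and 75. If the length were in nucleotides, neither could contain a whole footprint, and if it were in codons each would be longer than one. Another 37 members had listed lengths of 31 to 60 and 185 of 61 to 90, so the class lay mostly near its upper bound (median 74).

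Some members shared their footprint counts but not their mRNA counts. In 6 sets, 13 members shared all 6 footprint counts with another member, and all sets but one also shared the listed length, while their mRNA counts differed. A pair of listed length 60 had 1790 footprints each but 1772 and 1170 mRNA counts. Such members share their footprints and are not independent, and the stretch over which mRNA reads were counted is not given in the sources used.

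Footprints outweighed mRNA in most members. The CPM (counts divided by the library's total and multiplied by 1000000) was higher in footprints than in mRNA for 154 of 224 members (68.8%), against 51.3% of the 1158 features of listed length 91 to 163 and 5.59% of the 3007 features of 1000 to 2999, chosen with the same count minimum. The median ratio of footprint to mRNA CPM over members was 1.71 in WT and 1.32 in KO. The corresponding medians were 1.21 and 0.917 for listed lengths 91 to 163, and 0.559 and 0.510 over all 19213 features with that minimum. Within the members the ratio differed little by length, with medians over both genotypes of 1.32 for listed lengths 31 to 60 and 1.48 for 61 to 90. These are descriptions, since the count minimum in each assay took part in choosing the members.

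The members took a larger share of mRNA reads in every KO library than in any WT library. The share was 0.415%, 0.467% and 0.874% in WT libraries 1, 2 and 3, and 0.975%, 1.55% and 1.39% in KO libraries 1, 2 and 3. Counting error was small beside this spread, with an exact binomial 95% interval of 0.450% to 0.485% in the shallowest mRNA library, WT 2. The means were 0.586% ± 0.251 in WT and 1.31% ± 0.297 in KO (SD, n = 3), a ratio of 2.23. WT library 3 lay nearer to KO library 1 than to the other WT libraries, and against it alone the KO mean was 1.49 times as high.

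The footprint share of the members differed less and the genotypes overlapped. It was 0.796%, 1.06% and 1.24% for WT against 1.36%, 1.23% and 1.31% for KO, with an exact binomial 95% interval of 0.764% to 0.828% in the shallowest library, WT 1. The means were 1.03% ± 0.224 and 1.30% ± 0.0636 (SD, n = 3), a ratio of 1.26. WT library 3 was above KO library 2, so the groups did not separate. The mean footprint share divided by the mean mRNA share was 1.76 in WT and 0.996 in KO.

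**Figure D1:**
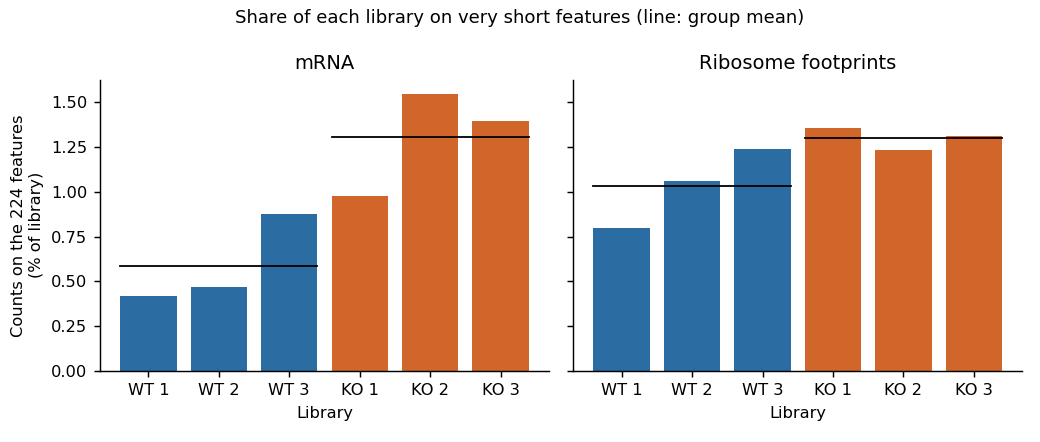
Share of each library's counts (y axis, percent) that fell on the 224 very short features, for mRNA and footprints, with 1 bar per library and a line at each group mean. In mRNA every KO bar, from 0.975% up, is above every WT bar, of which WT 3 at 0.874% is the highest, while in footprints WT 3 and KO 2 are close, at 1.24% and 1.23%.

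Other length classes also differed between the mRNA libraries, in nearly but not exactly the members' order. The share of mRNA reads on listed lengths 1000 to 2999 was 31.8%, 32.2% and 23.5% for WT against 21.3%, 19.0% and 18.9% for KO, and that on listed lengths 91 to 163 was 4.02%, 4.58% and 9.32% for WT against 9.63%, 12.2% and 12.3% for KO. The members' rise in mRNA thus went with a shift of whole libraries from long to short features, most of it between WT libraries 1 and 2 and the other 4. The part of that shift in the members' change was not tested.

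Single members were tested for mRNA differences with edgeR's quasi-likelihood test, with p-values adjusted over all features and a threshold of 0.05 on the adjusted p for calling a member. Without a low-count filter all 224 members were tested. Of these, 87 (38.8%) were higher in KO and 0 were lower, against 4.97% higher and 3.84% lower over all 32451 features. Over those with the members' count minimum the shares were 7.34% and 5.88%. The p-values of this unfiltered mRNA fit followed the normal curve at the fitted SE. The spread was thus in effect pooled over features, and a member's own scatter hardly entered. At an unadjusted p under 0.05 there were 124 higher and 1 lower by edgeR, against 11.6% and 9.91% of all features. The fitted log2 fold change of KO over WT was above 0 in 205 members, with a median of 0.94 (quartiles 0.42 and 1.50), where the median over all features tested was 0.01.

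With the default low-count filter, 124 members were tested and 100 were not. A low member can pass that filter through its KO libraries alone, so the counts after it only describe. There 70 members were called higher and 0 lower, against 9.16% and 6.02% of all features tested, and DESeq2 called 57 higher and 0 lower, against 6.08% and 2.99%. The called members had log2 fold changes from 0.99 to 4.54, and their footprints were higher in KO in 51 of 70 by sign. Both members of listed length 30 or less were among them, as were 23 of the 28 tested of listed length 31 to 60 and 45 of the 94 tested of listed length 61 to 90.

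The calls leaned on individual libraries. Against 70 with all libraries, 36 members were called without KO library 2, 38 without KO library 3, 44 without WT library 1 and 109 without WT library 3. The shares of all features tested that were called in either direction in these fits were 6.07%, 4.29%, 7.14% and 28.1%. When WT libraries 1 and 2 were both left out, WT stood on library 3 alone, whose spread was assumed to be that of KO. Then 11 of 187 members tested were higher and 0 lower, against 1.22% and 0.687% of all features tested, and without the low-count filter 2 of 224 were higher and 0 lower, against 0.072% and 0.0752%. The p-values of the unfiltered fit without those libraries did not follow the normal curve as those of the full unfiltered fit did. Its calls thus differ from the full ones in the estimate of spread as well as in the libraries, and the parts were not separated. The unfiltered median log2 fold change over all 224 members without those libraries was 0.37, with 153 above 0. All 70 members called with the full set had fold changes above 0 in that fit too, with a median of 0.77, but WT library 3 and the KO libraries had also entered the calls.

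Separation of the libraries gave a like picture. Every KO mRNA library lay above every WT library in 80 members (35.7%), against 10.5% of all features with the same count minimum, and below in 2 members, against 20.6%. In pairs of libraries, 189 to 196 members in each KO library were above WT library 1, 184 to 196 above WT library 2 and 131 to 144 above WT library 3. The WT libraries differed among themselves as well, since WT library 3 was above WT library 1 in 190 members.

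**Figure D2:**
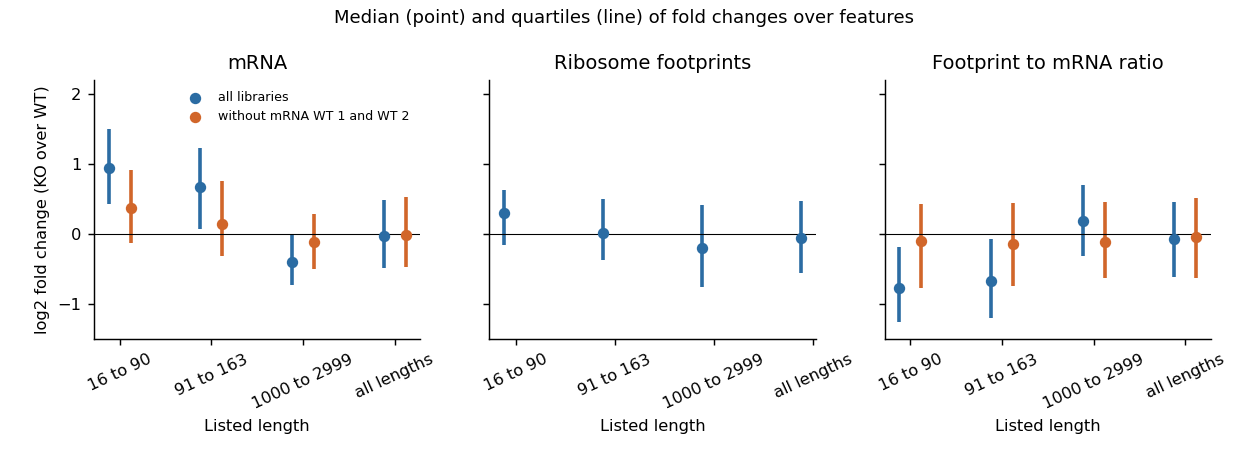
Median log2 fold change of KO over WT (point) and its quartiles (line) over features of each listed length class with 30 counts in each assay, for mRNA, footprints and their ratio. The mRNA median of the class 16 to 90 goes from 0.94 to 0.37 without WT mRNA libraries 1 and 2, and that of the ratio from -0.77 to -0.10, while in the class 1000 to 2999 they go from -0.41 to -0.11 and from 0.19 to -0.11.

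In footprints few members passed the test. Of 206 tested after the low-count filter, 1 was higher and 1 lower in KO, or 0.485% each, near the background of 0.685% higher and 0.435% lower over all features tested. Without the filter 5 of 224 were higher and 3 lower (2.23% and 1.34%), against 1.50% and 1.49%. At an unadjusted p under 0.05 the filtered edgeR test had 27 higher and 7 lower of 206, against 10.6% and 11.2% of all features tested. DESeq2 called 5 higher and 1 lower, against 1.79% and 2.33%, so the higher calls were near the background. The median log2 fold change over all 224 members was 0.29, and 148 were above 0. After the filter it was 0.28, and leaving out single libraries gave values from 0.01, when WT library 1 was absent, to 0.77, when WT library 3 was. The absence of KO library 1 gave 0.07.

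The number of footprint calls depended on the libraries kept. It was 0 without WT library 2, and 0 without any one of the KO libraries. It was 5 without WT library 1, which had the fewest counts and listed 10 members at 0, where 3 counts would be 10.1 CPM. It was 39 without WT library 3, which had the most counts, with 35 higher and 4 lower. Over all features tested, 2.64% were called in either direction without WT library 1 and 16% without WT library 3. Every KO footprint library lay above every WT library in 57 members (25.4%), against 11.3% of features with the same count minimum, and below in 11 (4.91%), against 7.81%.

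The footprint to mRNA ratio, called translation efficiency, was tested as the interaction of assay and genotype over all 12 libraries. The edgeR test called 0 of 224 members higher and 0 lower, against 0% and 0% of 25927 features, and the smallest adjusted p among members was 0.180. At an unadjusted p under 0.05 there were 1 higher and 44 lower among members, against 4.67% and 5.23% of all features. DESeq2 called 5 members, all lower, against 0.158% higher and 0.0656% lower. The median log2 fold change of the ratio was -0.77 over members, with 183 below 0, against -0.07 over all features tested and -0.67 over those of listed length 91 to 163.

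Without WT mRNA libraries 1 and 2, the median change of the ratio over members was -0.10, with 128 of 223 below 0. The medians were then -0.14 for listed lengths 91 to 163, -0.11 for 1000 to 2999 and -0.07 over all features tested. The edgeR test again called 0 members. At an unadjusted p under 0.05 there were 1 higher and 8 lower, against 2.25% and 3.32% of all features tested. The ratio contains the mRNA counts, so its change and that of mRNA are not separate measurements.

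By sign, 143 members were higher in KO in both assays, 62 were higher in mRNA and lower in footprints, 14 were lower in both, and 5 were lower in mRNA and higher in footprints. Across the 224 members the log2 fold changes of the assays had a Spearman correlation of 0.341 and a Pearson correlation of 0.424, given as a description of features that partly share reads. With listed length the mRNA change had a Spearman correlation of -0.205 within the class. The unfiltered median mRNA change was 1.47 for listed lengths 31 to 60 and 0.81 for 61 to 90.

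**Figure D3:**
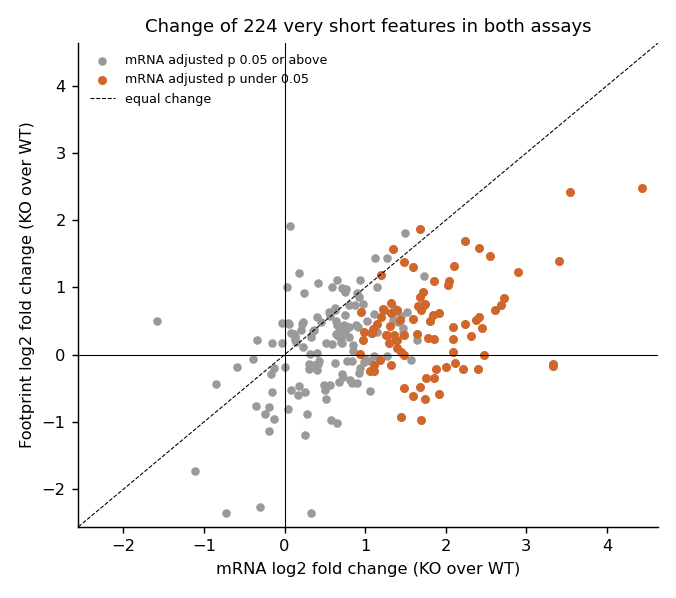
Footprint against mRNA log2 fold change (KO over WT) of the 224 very short features, fitted without a low-count filter, with the 87 called higher in mRNA in orange and a dashed line of equal change. Most points lie to the right of 0, 205 in all, and 85 of the called ones lie below the dashed line.

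The member with the smallest adjusted p in mRNA was the transcript uc007hjt.2, of listed length 78. Its mRNA stood at 1.78, 9.96 and 7.70 CPM in WT and at 105.0, 112.0 and 118.4 CPM in KO, from 2 to 6 counts in each WT library and 66 to 81 in each KO library. The groups were far apart, and the KO libraries were close to each other. Its WT values were too low for the low-count filter, which it passed through its KO libraries. Without the filter the mRNA log2 fold change was 4.44 (edgeR adjusted p = 8.11e-26, SE 0.39). That p rests on a spread pooled over features, so its size does not measure this member's own scatter. After the filter the mRNA change was 4.54 (edgeR adjusted p = 2.96e-07, SE 0.39), and 3.93 with WT library 3 as the only WT library.

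Its footprints were also higher in every KO library. They were 13.5, 30.2 and 30.4 CPM in WT and 144.9, 195.3 and 129.5 CPM in KO, a log2 fold change of 2.46 (edgeR adjusted p = 0.0470, SE 0.51). This footprint call was lost in 6 of 11 alternatives, with edgeR adjusted p of 0.0513 with every transcript separate, 0.0830 with the replicate number as a block, 0.151 without WT library 2 and 0.110 to 0.234 without 1 of the KO libraries. Footprints rose less than mRNA, and the footprint to mRNA ratio of the group means was 3.81 in WT and 1.40 in KO. The change of the ratio was -1.95 (SE 0.71) and did not pass the edgeR test, with an adjusted p of 0.364.

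The feature uc007lau.1, of listed length 60, had the next smallest adjusted p in mRNA. It stands for 4 transcript identifiers with the same counts, of which 1 is printed. It had 16.9, 19.9 and 35.4 CPM in WT and 106.6, 116.2 and 112.6 CPM in KO, a log2 fold change of 2.51 (edgeR adjusted p = 2.31e-05, SE 0.30). With WT library 3 as the only WT library the value was 1.75 and its edgeR adjusted p 0.00635, or 0.0725 without the low-count filter. Footprints were 27.0, 84.0 and 50.1 CPM in WT and 198.8, 128.1 and 156.2 CPM in KO, again without overlap. The footprint log2 fold change was 1.54 (SE 0.54), and its edgeR adjusted p of 0.116 was over the threshold.

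No member passed the mRNA test in the lower direction, and in footprints 1 did after the low-count filter and 3 without it. The member called in both fits was uc009mvw.2, of listed length 52, with footprints of 40.5, 18.4 and 50.9 CPM in WT and 6.94, 11.3 and 5.35 CPM in KO. Its log2 fold change was -2.36 (edgeR adjusted p = 0.0470, SE 0.49), and -1.38 without WT library 3. The call was lost with the replicate number as a block (edgeR adjusted p = 0.0931), without WT library 2 (0.120) and without any one of the KO libraries (0.130 to 0.234). Its mRNA was low in all libraries, at 8.90, 8.30 and 20.03 CPM in WT and 9.55, 4.25 and 5.85 CPM in KO, 3 to 13 counts each, with overlap between genotypes.

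**Figure D4:**
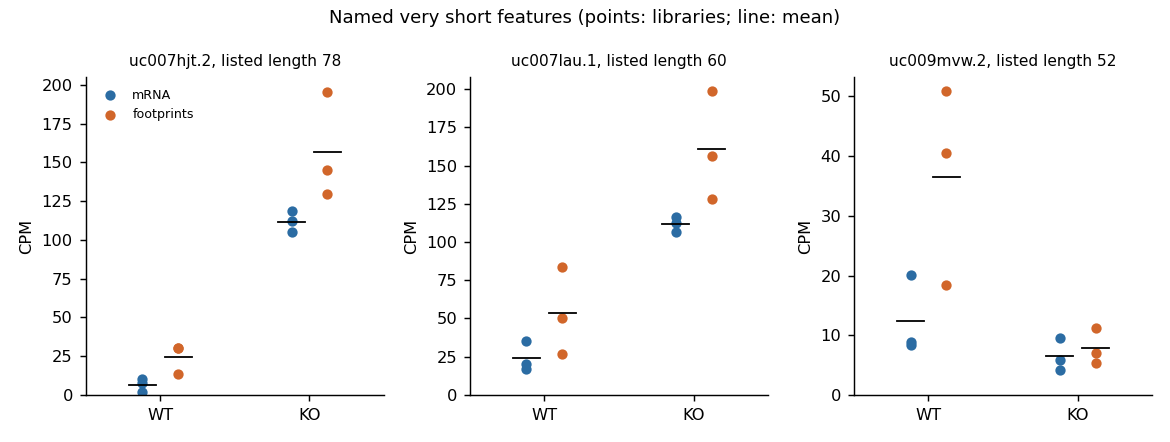
CPM in each library (points) with the group mean (line) for the 3 features with an identifier in the text, with mRNA in blue and footprints in orange. uc007hjt.2 and uc007lau.1 are higher in KO in both assays with no overlap, and uc009mvw.2 is lower in KO in footprints, from 36.6 to 7.86 CPM on average, while its mRNA values overlap.

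In the 8 members ranked highest in mRNA the assays differed. The ranking used the mean of the WT and KO group means, so KO values helped choose the 8 and their calls only describe. By WT mean alone, listed lengths 81 (155.2 CPM) and 89 (151.7 CPM) stood above listed lengths 74 (136.8) and 42 (124.4) of the 8. The mRNA changes of listed lengths 81 and 89 were 0.58 (edgeR adjusted p = 0.201) and 1.67 (0.00684), their footprint changes -0.45 and 1.23. The 8 had listed lengths of 75, 47, 60, 83, 61, 88, 74 and 42. All were called higher in KO mRNA, with log2 fold changes from 1.53 to 2.17 (edgeR adjusted p from 0.00120 to 0.0142). The footprint log2 fold changes of the 8 ran from -0.98 to 0.05. None passed the edgeR test, with adjusted p from 0.281 to 0.993. The ratio changed by -2.68 to -1.50, with edgeR adjusted p from 0.248 to 0.484.

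Their rise in mRNA was mainly in KO libraries 2 and 3, with KO library 2 at 1.95 to 3.23 times KO library 1. Of the other 216 members, 42 had a ratio of at least 1.9, and the median over the 216 was 1.11. A rise of that size was thus also seen outside the 8, but in a minority of members. The members of ranks 10 and 11, of listed lengths 60 and 73, had mRNA changes of 1.94 and 1.77 on the log2 scale. Their footprint changes were -0.36 and -0.50, and their ratio changes -2.21 and -2.18. The member of rank 10 had the same footprint counts in every library as the member of listed length 60 among the 8. Its footprint change was therefore not a separate measurement, and its ratio change used the same footprint counts. Summed over the 8, mRNA was 1188, 1323 and 2456 CPM in WT and 2790, 6519 and 5018 CPM in KO. The other 216 members summed to 2967, 3351 and 6286 CPM in WT and 6959, 8971 and 8918 CPM in KO. The 8 thus made up 28.1% to 28.6% of the members' mRNA in the 3 WT libraries and KO library 1, and 42.1% and 36.0% in KO libraries 2 and 3.

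In footprints the same 8 were not higher in those libraries. Their summed footprints were 988.0, 1349 and 1793 CPM in WT and 1164, 772.9 and 1178 CPM in KO. Each of the 8 had its highest mRNA value of all libraries in KO library 2, and each had its lowest KO footprint value in KO library 2. The labels do not say that libraries of the same number came from the same tissue. Without WT mRNA libraries 1 and 2, their mRNA log2 fold changes ran from 0.75 to 1.63, and 2 of the 8 were called, those of listed lengths 74 and 42.

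**Figure D5:**
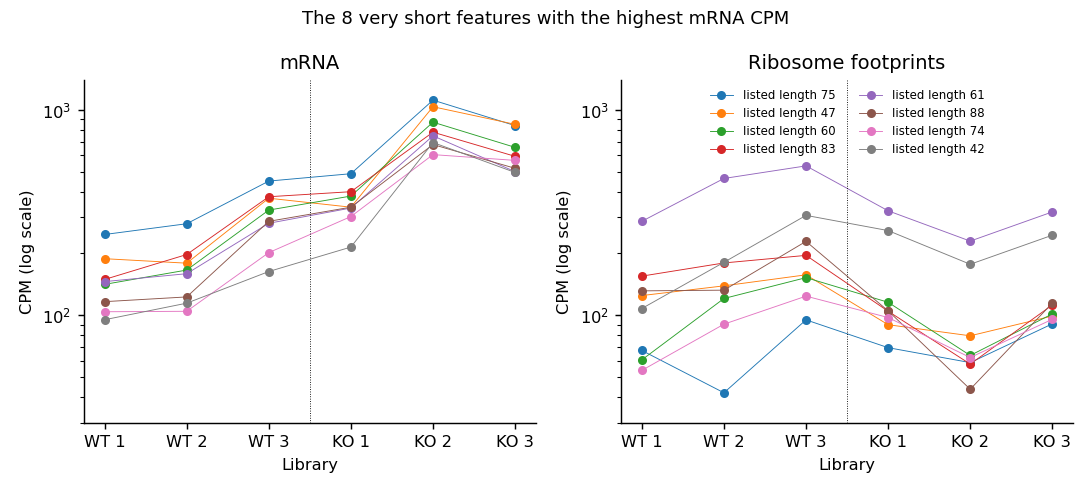
CPM on a log scale in each library, for the 8 very short features with the highest mRNA CPM, where thin lines join the values of 1 feature and imply no order of replicates. All 8 mRNA values peak in KO 2, up to 1114 CPM for listed length 75, whereas in footprints the KO 2 value is the lowest of the KO libraries for each.

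As an example, the member of listed length 75, highest in mRNA, had 247.3, 279.0 and 449.9 CPM in WT mRNA and 488.5, 1114 and 837.6 CPM in KO mRNA. Its KO libraries were above its WT libraries in mRNA. Footprints of that member were 67.4, 42.0 and 95.04 CPM in WT and 69.6, 58.9 and 90.9 CPM in KO, with full overlap. Over the 8, KO library 1 was at 0.904 to 1.50 times WT library 3 in mRNA, and below it for listed length 47. The genotypes separated in mRNA in 7 of the 8. In footprints 3 of the 8 had every KO library below every WT library, against 7.81% of all features with the same count minimum.

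The members with most footprints were a different group, sharing 2 of 8 with those highest in mRNA. The first and second both had a listed length of 35. The first had footprints of 313.6, 332.0 and 347.7 CPM in WT and 556.6, 592.3 and 490.1 CPM in KO, and mRNA of 32.0, 44.8 and 98.6 CPM in WT and 133.7, 188.5 and 194.4 CPM in KO. Both assays separated the genotypes, but only mRNA passed, with a log2 fold change of 1.83 (edgeR adjusted p = 0.00140, SE 0.34) against 0.72 for footprints (edgeR adjusted p = 0.466, SE 0.55). Without WT mRNA libraries 1 and 2 the mRNA value was 0.91 and its edgeR adjusted p 0.172.

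The second had footprints of 263.0, 469.8 and 335.8 CPM in WT and 503.5, 535.8 and 519.2 CPM in KO. Its mRNA was lower throughout, from 16.6 to 53.9 CPM in WT and from 55.3 to 68.7 CPM in KO. Footprints per mRNA were thus high in both genotypes for this member, at 6.23 to 28.3 for WT against 7.56 to 9.70 for KO when libraries of the same number were set together. The change in mRNA was 1.28 (edgeR adjusted p = 0.0184, SE 0.36), and 0.28 without WT mRNA libraries 1 and 2.

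The 2 shortest members went apart in footprints. The member of listed length 16 had footprints of 80.9, 131.2 and 130.5 CPM in WT and 84.7, 100.6 and 67.7 CPM in KO, which overlapped, and an mRNA log2 fold change of 1.58 (edgeR adjusted p = 0.00408). The member of listed length 28 had footprints of 20.2, 15.7 and 25.5 CPM in WT and 56.1, 86.9 and 63.6 CPM in KO, which did not overlap, with a footprint log2 fold change of 1.56 (edgeR adjusted p = 0.0677). Its mRNA log2 fold change was 1.44 (edgeR adjusted p = 0.0468). Without WT mRNA libraries 1 and 2 these mRNA changes were 1.05 and 0.40, and neither was called.

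The values at the bounds of the rule were as follows. The 28 members of listed length 88 to 90 had a median mRNA log2 fold change of 0.97, and the 22 features of 91 to 93 just outside had 1.04. The 22 members with 30 to 34 mRNA counts had a median of 0.62, and the 28 features with 25 to 29 had 0.49. The 5 members with 30 to 49 footprint counts had medians of -0.13 in mRNA and -0.89 in footprints, and the 14 features with 10 to 29 had 0.38 and 0.0057, so the members just inside that bound were lower.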

How the data were processed

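The authors deposited raw counts, whole numbers that are not normalized, under UCSC transcript identifiers, 63759 in each of 12 libraries, with a listed length that is the same in all libraries and has no stated unit. TopHat2 2.0.9, Bowtie2 2.3.4.2 and CASAVA 1.8 are named in the submitters' processing notes. The counting rule, read-length filter and treatment of multiply mapping reads are not stated there or in the labels, so near-identical copies could share or lose reads.

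Transcripts with the same 12 counts were merged. mRNA and footprints were each fitted across all features with edgeR 4.0.16 (R 4.3.3) by the quasi-likelihood test, with TMM scaling, filterByExpr at its defaults, and p-values adjusted by Benjamini-Hochberg over all features tested. The ratio was tested as an interaction of genotype and assay, for features with at least 10 counts in each assay. SE was derived from the F statistic. CPM used totals over distinct features. The edgeR fits with the default filters were tested on simulated data with 1 dispersion throughout and as many rises as falls. Unfiltered fits, WT libraries that differ among themselves and shifts linked to length were not covered. DESeq2 1.42.0, other scaling and filters, leaving out libraries, the replicate number as a block and other bounds on the members were alternatives. Binomial intervals and the 3-count floor cover counting error only.

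Identifiers are printed for at most 2 members per direction, those of smallest adjusted p in mRNA among members whose genotypes did not overlap, or in footprints where mRNA had none. Other members, the highest in each assay, are given by listed length. The members and lists were chosen with earlier results of these data known. The examples named by listed lengths 16 and 28 were picked as the shortest, after their values were seen.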

Additional observations from a re-analysis of the deposited data

How the results depend on the processing

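Members called in mRNA (70 of 124 tested) numbered 25 of the 30 tested among listed lengths 16 to 60. The range was 36 to 109 on leaving out single replicates. The median over members tested, as log2 fold change (1.26 after the filter), was 0.40 without mRNA libraries WT 1 and WT 2. It was 1.795 among listed lengths 16 to 60 and 0.90 to 1.83 on leaving out single replicates. The KO minus WT share of mRNA counts (0.720 percentage points) was 0.432 without mRNA libraries WT 1 and WT 2. Members called in footprints (2 of 206 tested) numbered 6 of 206 with DESeq2 and 8 of 224 without the low-count filter. They numbered 9 of 206 at an adjusted p under 0.10 and 1 of 37 among listed lengths 16 to 60. With every transcript separate 1 of 253 identifiers was called, and with at least 100 counts in each assay 1 of 85. The range was 0 to 39 on leaving out single replicates. For the ratio (0 of 224 members), 5 were called with DESeq2 and 0 to 5 on leaving out single replicates. Shares of all features called are given above for some of these settings, and counts without such a share only describe. The cause was not tested where none is named. No median or share over the members changed sign in the alternatives run.

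With the replicate block, 72 members were called in mRNA, 0 in footprints and 16, all lower, in the ratio. The shares of all features called in those fits are not given here, so these counts only describe. No label says what a replicate number shares. Libraries of one number had deviations from their group means with correlations of -0.00204 to 0.107 between WT and KO mRNA, -0.325 to 0.111 between WT and KO footprints, and 0.0210 to 0.355 between assays. uc007hjt.2 and uc007lau.1 kept their mRNA call in 12 of 12 alternatives other than the one added last; in 11 footprint alternatives uc007hjt.2 was called in 5, uc007lau.1 in 1 and uc009mvw.2 in 6.
The unfiltered fit without mRNA libraries WT 1 and WT 2 was added after seeing the data, and there the edgeR adjusted p for mRNA was 0.0725 for uc007lau.1, no longer called, and 0.00230 for uc007hjt.2.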

Other observations

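One abundant member did not follow the contrast between mRNA and footprints seen in the 8 members highest in mRNA. This member, of listed length 89 and rank 9 in mRNA CPM, had mRNA of 77.4, 131.2 and 246.5 CPM in WT and 276.9, 435.1 and 516.0 CPM in KO. Its footprints were 279.9, 208.6 and 127.0 CPM in WT and 173.9, 552.0 and 660.6 CPM in KO. Both assays were thus highest in KO libraries 2 and 3, while the footprints of WT library 1 were above those of KO library 1. The footprint log2 fold change was 1.23 (edgeR adjusted p = 0.204, SE 0.54).

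The smallest adjusted p for the ratio, 0.180 by edgeR, belonged to a pair of members of listed lengths 79 and 68 that share all 6 mRNA counts. Their footprint counts were also the same except in WT library 3, with 45 and 44, so the pair is not independent. Their mRNA was 1.78, 1.66 and 4.62 CPM in WT and 11.1, 24.1 and 36.5 CPM in KO, from 1 to 3 counts in each WT library. The footprints of the first were 3.37, 6.56 and 8.45 CPM in WT and 6.94, 5.89 and 9.51 CPM in KO, with overlap. The log2 change of the ratio was -3.53 (SE 0.81) for the first, and -2.56 without WT mRNA libraries 1 and 2.

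A member of listed length 80 just missed the footprint threshold and had close values within each genotype, at 47.2, 42.0 and 38.9 CPM in WT and 159.2, 133.0 and 149.1 CPM in KO. Its edgeR adjusted p was 0.0526, with a log2 fold change of 1.81 (SE 0.45) in footprints and 1.78 (SE 0.35) in mRNA. The ratio changed by 0.20 (SE 0.60). These members were picked after their values were seen.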
